A study of Mus musculus with 9 samples.

Results

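The nuclear lamina and HMGB family were followed through 9 genes in ovarian tissue: the lamins Lmnb1, Lmnb2 and Lmna, the inner nuclear membrane genes Lbr, Tmpo and Emd, the chromatin-bridging gene Banf1, and the high mobility group genes Hmgb1 and Hmgb2. They were taken by gene symbol, with no threshold on their values, from the authors' deposited table, and all 9 were found among its 19517 genes with values in each of 3 comparisons. Every mouse was a female BALB/c nude mouse, an athymic strain, carrying a xenograft of the human breast cancer line MDA-MB-231, so the tumor is common to all groups. The 9 RNA-seq libraries fell into 3 groups of 3: UT received no treatment, CTX received cyclophosphamide, an alkylating chemotherapy drug, and CAU is labelled with caulerpin, an indole alkaloid of green algae. The labels do not say whether CAU mice also received cyclophosphamide, nor the doses, times or ages, and they give numbered replicates but no animals, so the spread behind each p-value is that between these samples and may be technical.

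The nuclear lamina is a meshwork of lamin filaments under the inner nuclear membrane that gives the nucleus its shape and anchors heterochromatin. B-type lamins stay attached to the membrane, A-type lamins also reach the nuclear interior, and LEM-domain proteins such as emerin and the TMPO products hold chromatin there through BANF1. HMGB1 and HMGB2 are abundant DNA-bending proteins of chromatin. Loss of lamin B1 and HMGB2 and release of HMGB1 from the nucleus are widely used signs of cellular senescence, and several of these genes are also expressed most in dividing cells. The study's title names granulosa cell senescence, which is the question that these genes bear on here.

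Hmgb2 was the only one of the 9 genes called in any comparison, and it was higher in CTX than in UT. The sequence just upstream of its RefSeq start (GRCm38.p6) is shown because promoters of genes expressed in dividing cells often hold CCAAT boxes and the cell cycle homology region (CHR). Those of Hmgb1 and Tmpo, which had positive values in the same comparison, and of Lmna, which had a negative one, are set beside it. Each run is the 250 bases before the start, 5′ to 3′ on the gene's strand, and capitals mark CCAAT and the CHR letters TTTGAA on either strand, together with the E2F letters TTTCCCGC and TTTGGCGC, which none of these 4 holds.
Hmgb2: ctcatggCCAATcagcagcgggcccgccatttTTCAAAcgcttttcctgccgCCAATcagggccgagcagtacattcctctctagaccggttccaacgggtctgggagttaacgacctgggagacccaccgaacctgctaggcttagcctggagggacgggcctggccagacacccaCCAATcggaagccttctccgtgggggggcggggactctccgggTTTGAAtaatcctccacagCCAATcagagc
Hmgb1: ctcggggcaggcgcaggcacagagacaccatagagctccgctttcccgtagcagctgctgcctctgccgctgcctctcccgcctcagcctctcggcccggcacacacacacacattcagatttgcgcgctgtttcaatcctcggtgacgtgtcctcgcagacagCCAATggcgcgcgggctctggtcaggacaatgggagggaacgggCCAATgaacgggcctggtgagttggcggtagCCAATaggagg
Tmpo: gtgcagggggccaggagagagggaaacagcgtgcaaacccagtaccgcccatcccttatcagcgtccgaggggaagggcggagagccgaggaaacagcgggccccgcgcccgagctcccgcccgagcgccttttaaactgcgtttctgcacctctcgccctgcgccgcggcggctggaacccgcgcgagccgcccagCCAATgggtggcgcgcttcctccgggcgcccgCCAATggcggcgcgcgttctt
Lmna: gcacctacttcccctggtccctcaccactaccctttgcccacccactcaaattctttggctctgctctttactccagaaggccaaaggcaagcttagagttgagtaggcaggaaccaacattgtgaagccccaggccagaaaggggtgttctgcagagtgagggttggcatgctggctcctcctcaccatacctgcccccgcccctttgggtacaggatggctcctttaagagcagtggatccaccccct

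The Hmgb2 run lies at chr8:57511593-57511842 on the plus strand, that of Hmgb1 at chr5:149053058-149053307, that of Tmpo at chr10:91171620-91171869 and that of Lmna at chr3:88503353-88503602, the last 3 on the minus strand. Hmgb2 held 4 CCAAT boxes and 2 CHR matches. The CCAAT box nearest the start spans bases 11 to 7 before it and the nearest CHR bases 30 to 25, and no match overlapped another. Of all 32851 promoters scanned the same way, 33.8% held CCAAT, 0.84% held at least 4 CCAAT boxes, 16.0% held a CHR and 5.55% held both. Hmgb1 held 3 CCAAT boxes and Tmpo 2, all on the strand shown, while the Lmna run held no match. Of all promoters, 2.79% held at least 3 CCAAT boxes and 10.1% at least 2. The contrast depends on the promoter shown: the second promoter of Hmgb1 held no match, that of Tmpo no CCAAT box and that of Lmna 1 CCAAT box. A second RefSeq promoter is listed for each of Hmgb1, Tmpo, Lmna, Lmnb2 and Banf1. Over the 13 promoters of 8 of the genes, CCAAT was found for 7 genes and a CHR for Hmgb2, Lbr and the second promoter of Tmpo. The E2F letters (1.30% of all promoters) were found for Banf1 and the second promoter of Tmpo. These counts are by gene, with 2 promoters for some, while the shares are by promoter, so they are not directly comparable. Emd, with a negative value in CTX against UT, held a CCAAT box at bases 27 to 23 before its start, and Lmnb2, with a positive one, held no match in either promoter. Lmnb1 was not scanned. A match describes letters in this window and was not tied to any measured binding.

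Values are log2 fold changes between group means, given with the standard error (SE) that each gene's own p-value implies. The table does not state the numerator; each column was taken as its second group relative to its first, and the opposite reading would turn every sign together. No values per library were used, so the level in each ovary, the overlap between groups and the sequencing depth are not given here. A gene is called where the adjusted p of the authors' DESeq2 result is under 0.05 over all genes tested.

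Between CTX and UT, Hmgb2 rose and the other 8 genes were not called. The values of 7 genes were positive and those of Emd and Lmna negative, with a median of 0.11 against -0.03 over all genes. By the authors' deposited table, 1 of 9 was called, higher, against 1.29% of all 19260 genes called in either direction and 0.472% called higher. Without adjustment, Lmnb1, Tmpo, Hmgb1 and Hmgb2 had p under 0.05, all positive, which is 4 of 9 against 10.2% of all genes (4.42% higher). Positive values made up 44.2% of all genes in this comparison.

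Hmgb2 was 1.32-fold higher in CTX than in UT per the authors' deposited table (0.40 on the log2 scale, SE 0.11, 95% interval 0.18 to 0.62, adjusted p = 0.0300 from DESeq2). By its p-value it ranked 208 of the 19260 genes, and it would not be called at a threshold of 0.01. Hmgb1, its close relative, was at 0.11 (SE 0.05, 95% interval 0.02 to 0.20, adjusted p = 0.355) per the authors' deposited table. That interval holds rises of 1.01-fold to 1.15-fold, so Hmgb1 combined one of the smallest SEs of all genes, the 8th lowest of 19260, with an upper bound of 0.20 on the log2 scale. HMGB1 release from the nucleus is a change of protein location that RNA does not measure.

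The values of the 3 lamins differed in sign, but only the 95% interval of Lmnb1 left out 0. Lmnb1, the B-type lamin commonly lost in senescence, was 1.38-fold higher in CTX per the authors' deposited table (0.46 on the log2 scale, SE 0.16, 95% interval 0.15 to 0.77, unadjusted p = 0.00399, adjusted p = 0.139), the highest value of the 9 but short of the threshold. Lmnb2, the other B-type lamin, was at 0.15 (SE 0.17, 95% interval -0.19 to 0.49, adjusted p = 0.943) per the authors' deposited table. Lmna, which encodes lamins A and C, was the lowest of the 9 at -0.15 (SE 0.09, 95% interval -0.32 to 0.03, adjusted p = 0.661) per the authors' deposited table. Lmnb1 therefore stood 0.60 above Lmna on the log2 scale, and Hmgb2 stood 0.54 above it. Of 36 pairs among the 9 genes, these were the 2 whose 95% intervals did not overlap, and neighbours in the order of values all had overlapping intervals. Both pairs set one of the highest values of the 9 against the lowest, so their values picked them. The share of such pairs over all genes was not computed. The difference between genes was not tested, since it needs values per library.

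Among the membrane genes, Tmpo, whose LAP2 products bind lamins and chromatin, had the highest value at 0.23 (SE 0.10, 95% interval 0.03 to 0.43, adjusted p = 0.392) per the authors' deposited table. Lbr, the lamin B receptor and a sterol reductase, was at 0.08 (SE 0.11, adjusted p = 0.973) per the authors' deposited table. Emd, which encodes emerin, was at -0.10 (SE 0.16, adjusted p = 0.978), and Banf1, which encodes the factor that links DNA to LEM-domain proteins, at 0.06 (SE 0.14, adjusted p = 0.978) per the authors' deposited table. The 95% intervals were -0.14 to 0.30 for Lbr, -0.40 to 0.21 for Emd and -0.22 to 0.34 for Banf1, each of which holds 0.

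**Figure D1:**
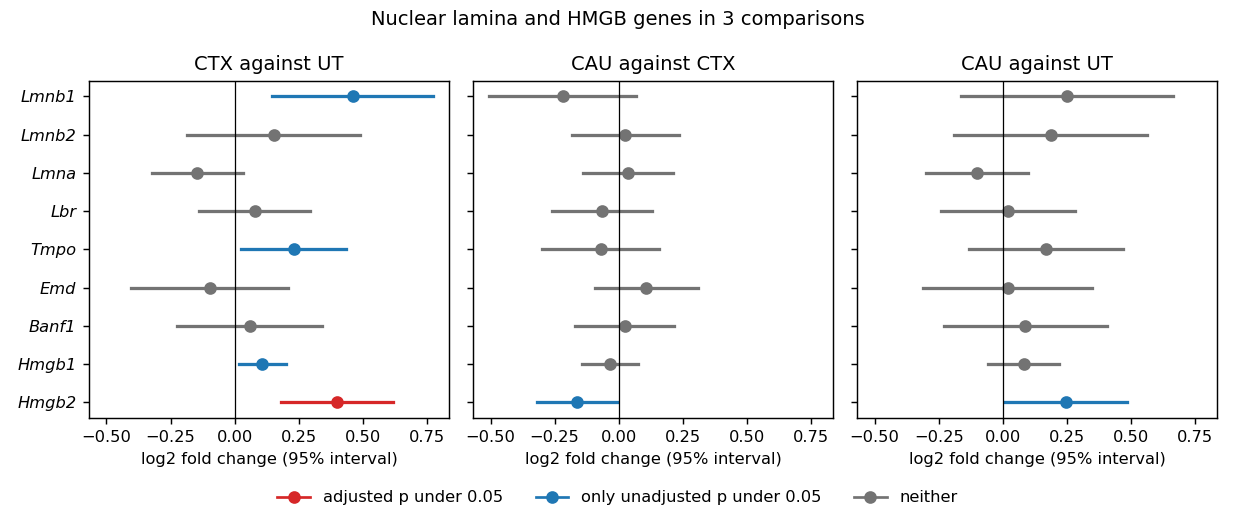
Log2 fold change (x axis) of each of the 9 genes (rows) in each comparison (panels), with its 95% interval from the implied SE. Red marks an adjusted p under 0.05, blue an unadjusted p under 0.05 alone and grey neither. Hmgb2 at 0.40 in CTX against UT is the only red point.

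Between CAU and CTX, no gene of the 9 passed the threshold. By the authors' DESeq2 result 0 of 9 were called, against 0.442% of 19245 genes, and 1 had an unadjusted p under 0.05, against 5.36% of all genes. That gene was Hmgb2, at -0.16 (SE 0.08, 95% interval -0.32 to -0.01, unadjusted p = 0.0423, adjusted p = 0.881) per the authors' deposited table. Lmnb1 had the lowest value, -0.22 (SE 0.15, 95% interval -0.50 to 0.07, unadjusted p = 0.136), per the authors' deposited table. Lmnb2, Lmna and Banf1 were at 0.03, 0.04 and 0.02 per the authors' deposited table, with SEs of 0.11, 0.09 and 0.10. Emd was the highest at 0.11 (SE 0.10), and Tmpo, Lbr and Hmgb1 were at -0.07, -0.07 and -0.03 (SE 0.12, 0.10 and 0.06) per the authors' deposited table. The median of the 9 was -0.03 against 0.00 over all genes, 4 of the 9 values were positive against 52.3% of all genes, and all 36 pairs had overlapping intervals.

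Between CAU and UT, none of the 9 passed either, while 8 of the 9 values were positive, against 47.8% positive over all genes. By the authors' DESeq2 result 0 of 9 were called, against 0.0518% of 19302 genes, and 1 had an unadjusted p under 0.05, against 3.46% of all genes. Lmnb1 and Hmgb2 had the highest values and differed from each other by less than 0.01. Lmnb1 was at 0.25 (SE 0.21, 95% interval -0.16 to 0.66, unadjusted p = 0.238) and Hmgb2 at 0.25 (SE 0.12, 95% interval 0.01 to 0.48, unadjusted p = 0.0432) per the authors' deposited table. Lmnb2 was at 0.19 (SE 0.19), Tmpo at 0.17 (SE 0.15), Banf1 at 0.09 (SE 0.16) and Hmgb1 at 0.08 (SE 0.07) per the authors' deposited table. Lbr and Emd were both at 0.02 (SE 0.13 and 0.17) and Lmna was the only negative value, -0.10 (SE 0.10), per the authors' deposited table.

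The 3 comparisons share their libraries in pairs, and the values of CTX against UT and of CAU against CTX add up to those of CAU against UT within 0.01 for each of the 9 genes, so they are not separate evidence. Side by side, Hmgb2 was at 0.40, -0.16 and 0.25 and Lmnb1 at 0.46, -0.22 and 0.25 in CTX against UT, CAU against CTX and CAU against UT, per the authors' deposited table. Whether either gene's level in CAU lies nearer CTX or UT is not resolved by these values: both steps away from CAU had adjusted p of 0.881 or more.

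The 9 genes were measured more precisely than most. Their SEs lay between 0.05 and 0.17 in CTX against UT, where the median gene had 0.21, and between 0.06 and 0.15 in CAU against CTX, where it had 0.18. In CAU against UT they lay between 0.07 and 0.21, where the median gene had 0.24. Lmnb1 had the highest or next highest SE of the 9 in each comparison, and Hmgb1 the lowest. In CTX against UT, Lmnb1, which was not called, had a larger value than Hmgb2, which was (0.46 against 0.40), and a larger SE (0.16 against 0.11), per the authors' deposited table.

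**Figure D2:**
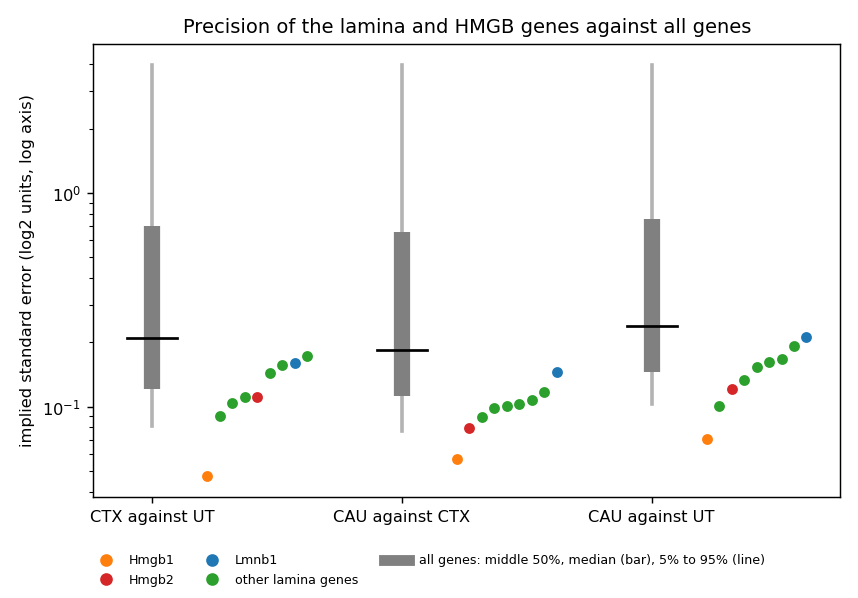
Implied SE (y axis, log scale) of the 9 genes (points) beside all genes (bar for the middle 50% and line for 5% to 95%) in each comparison. All 9 lie under the median of all genes, which is 0.21, 0.18 and 0.24 from left to right.

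Genes of dividing cells had positive values beside those of Hmgb2 and Lmnb1. Of 22 proliferation genes, 4 rose in CTX against UT, against 0.472% of all genes called higher. Every one of the 22 had a positive value (median 0.41), against 44.2% of all genes. Without adjustment, 20 had p under 0.05, all positive, against 4.42% of all genes with such a p and a positive value. The called genes per the authors' deposited table were the proliferation marker Mki67 at 0.45 (SE 0.12, adjusted p = 0.0284), the topoisomerase gene Top2a at 0.62 (SE 0.15, adjusted p = 0.00909), the spindle checkpoint gene Bub1 at 0.56 (SE 0.15, adjusted p = 0.0209) and the replication helicase gene Mcm4 at 0.41 (SE 0.11, adjusted p = 0.0271). Hmgb2 and Lmnb1, at 0.40 and 0.46 per the authors' deposited table, sat near the median of that list. In CAU against CTX none of the 22 was called by DESeq2. There 7 had an unadjusted p under 0.05, all negative (list median -0.19), against 5.36% of all genes in either direction. In CAU against UT none was called and 8 had one, all positive (list median 0.30), against 3.46% of all genes in either direction. For this list too, the 3 comparisons share libraries in pairs and are not separate evidence.

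Of 10 granulosa cell markers, 2 rose in CTX against UT, against 0.472% of all genes, and the other 8 were not called; 9 of the 10 values were positive, with a median of 0.48. These were Inhbb, which encodes the beta B chain of inhibin and activin, at 1.00 (SE 0.21) and Fst, which encodes follistatin, at 0.67 (SE 0.15) per the authors' deposited table. Of 10 macrophage markers 6 fell, against 0.82% of all genes, with a median of -0.96. Of 8 T and NK cell markers 2 fell, Ncr1 and Gzma (list median -2.25, median SE 1.13). Of 8 surface and oviduct epithelium markers 1 fell, Upk3b (list median -1.33, median SE 0.94). None of 8 oocyte, 8 theca and stroma, 6 endothelial, 6 smooth muscle, 6 adipocyte, 6 neutrophil, 5 B and plasma cell or 3 erythroid markers was called by DESeq2. In that order, 1, 1, 1, 0, 2, 1, 1 and 1 of them were under an unadjusted p of 0.05, against 10.2% of all genes. All granulosa and oocyte markers had values, but so had all 6 neutrophil and all 6 adipocyte markers. Having a value therefore does not check the ovarian label, and the levels of the markers are not given. In bulk tissue, more or fewer cells of a type and more or less RNA per cell cannot be told apart. In CAU against CTX, 1 of 10 granulosa markers fell, Inhbb at -0.47 (SE 0.09) per the authors' deposited table. In that comparison 2 of 10 macrophage markers and 3 of 8 T and NK cell markers rose. These calls stand against 0.442% of all genes called in either direction. In CAU against UT no marker of any of the 12 cell type lists was called by DESeq2. There 4 granulosa markers, all positive, and 5 macrophage markers, all negative, had an unadjusted p under 0.05, against 3.46% of all genes in either direction. So had 1 or 2 markers of each of 5 other lists. The part of these cell type and proliferation shifts in the values of Hmgb2 and the lamins was not tested.

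Among other genes tied to senescence, 2 of 14 were called in CTX against UT, against 1.29% of all genes. Cdkn1a, which encodes the cell cycle inhibitor p21, rose by 1.99 (SE 0.32, adjusted p = 9.15e-07), and Igfbp3, which encodes an IGF-binding protein, fell by 1.54 (SE 0.41, adjusted p = 0.0209) per the authors' deposited table. In the same comparison Hmgb2 was called higher, and Lmnb1 had a positive value that was not called (DESeq2 adjusted p = 0.139). Whether these values arose in the same cells was not tested, since the tissue was measured in bulk. The list median was -0.58, with a median SE of 0.56. In CAU against CTX, Cdkn1a fell by 1.41 (SE 0.24, adjusted p = 6.35e-06) per the authors' deposited table, the only one of the 14 called, against 0.442% of all genes. In CAU against UT none was called by DESeq2 and 2 had an unadjusted p under 0.05, against 3.46% of all genes.

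In 4 further lists of nuclear envelope genes (nuclear pore, inner membrane and LEM partners, LINC complex and lamin processing), no gene was called in any comparison. In CTX against UT all 16 nuclear pore genes were positive, from 0.04 to 0.33 with a median of 0.18 (44.2% of all genes were positive). Of these, 2 had an unadjusted p under 0.05, against 10.2% of all genes in this comparison. In CAU against CTX all 16 were negative (median -0.10, where 52.3% of all genes were positive), and none had an unadjusted p under 0.05. Both comparisons use the CTX libraries, so these counts are not separate evidence. Nup50, a pore basket component, was at 0.05 (SE 0.07) in CTX against UT per the authors' deposited table. The 12 inner membrane and LEM partners had a median of 0.03, with 6 positive and 1 under an unadjusted p of 0.05, and Tor1aip1, which encodes the torsin cofactor LAP1, was at -0.01 (SE 0.08) per the authors' deposited table. The LINC complex joins the nucleus to the cytoskeleton, and its list also holds the torsin gene Tor1a, which does not encode a part of the complex. The 7 genes of this list had a median of -0.02 and ran from -0.92 to 0.19, with 2 under an unadjusted p of 0.05, in opposite directions. These were Sun1 and Sun2, which encode LINC proteins of the inner membrane. Sun1 was at 0.19 (SE 0.07, unadjusted p = 0.00498, adjusted p = 0.159) per the authors' deposited table. Sun2, named after its value was seen, was at -0.25 (SE 0.12, unadjusted p = 0.0384, adjusted p = 0.443) per the authors' deposited table. In CAU against UT 2 LINC genes were under an unadjusted p of 0.05, against 3.46% of all genes. Both were negative, Sun2 at -0.29 and Syne3, also named after its value was seen, at -0.94, per the authors' deposited table.

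The 6 lamin processing genes had a median of 0.04 in CTX against UT, and none was under an unadjusted p of 0.05. Zmpste24, the protease that matures prelamin A, was at 0.01 (SE 0.07) in CTX against UT per the authors' deposited table. It was at 0.31 (SE 0.14, unadjusted p = 0.0246, adjusted p = 0.741) in CAU against CTX by DESeq2. In CAU against UT it was at 0.33 (SE 0.16, unadjusted p = 0.0337), and it was called in neither. The 11 heterochromatin genes had a median of 0.10, with none under an unadjusted p of 0.05, and Cbx5, the HP1-alpha gene whose product binds LBR, was at 0.10 (SE 0.06, unadjusted p = 0.0678) in CTX against UT per the authors' deposited table.

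The 14 other HMG-box, HMGA and HMGN genes had a median of 0.03 in CTX against UT, from -0.22 to 0.12, and none had an unadjusted p under 0.05 in any comparison. Hmgb2, at 0.40 per the authors' deposited table, lay above that range, a difference that was not tested. Ubtf, an HMG-box factor of ribosomal RNA transcription, was at 0.05 (SE 0.08) per the authors' deposited table. Of 12 genes for HMGB1 receptors and their partners, 11 were negative in CTX against UT, where 44.2% of all genes were positive. The list had a median of -0.44 and a median SE of 0.33. None was called by DESeq2 and 4 had an unadjusted p under 0.05, all negative, against 10.2% of all genes in either direction. These 4 were named after their values were seen. They were the chemokine gene Cxcl12 at -0.43, Tlr4 at -0.69, Cd14 at -1.19 and Havcr2 at -1.92 per the authors' deposited table. In CAU against CTX Cxcl12 was at -0.11, while Tlr4, Cd14 and Havcr2 were at 0.22, 1.11 and 1.45, and none was called. Several receptors on this list are expressed by macrophages, and 6 of 10 macrophage markers fell in CTX against UT. Cxcl12 encodes a ligand and not a receptor. The part of macrophages in the values of this list was not tested. Myd88, the adaptor of Toll-like receptors, was at -0.07 (SE 0.11) per the authors' deposited table. Of 5 measured genes of cytosolic DNA sensing, none was called by DESeq2 in CTX against UT. There 1 had an unadjusted p under 0.05, against 10.2% of all genes. It was the kinase gene Tbk1 at 0.19 (SE 0.09, adjusted p = 0.393) per the authors' deposited table.

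**Figure D3:**
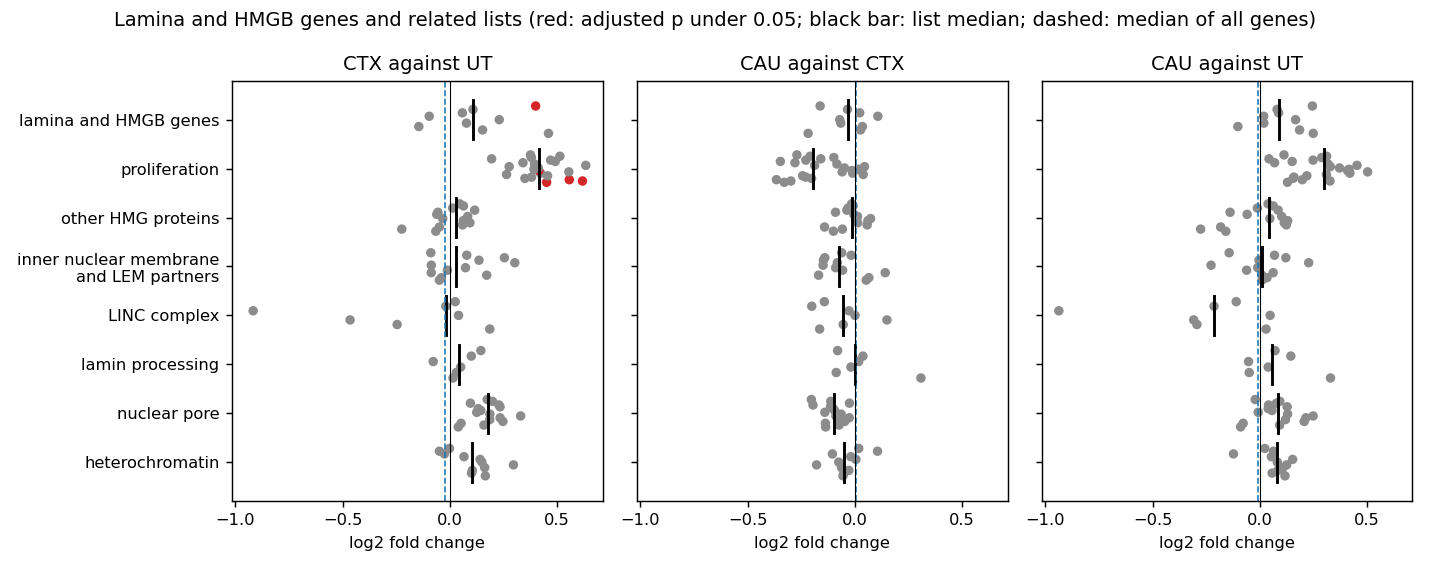
Log2 fold changes (x axis) of the 9 genes and of 7 related lists (rows) in each comparison (panels), with 1 point a gene, red where the adjusted p is under 0.05, a black bar at the list median and a dashed line at the median of all genes. In CTX against UT the proliferation list (median 0.41) lies farthest right and the 9 genes spread from -0.15 to 0.46.

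The genes whose 3 values were most like those of Lmnb1, Hmgb2 and Lmna were picked by the largest absolute difference in log2 fold change over the 3 comparisons, over the 10649 genes whose SE did not exceed 0.3. Because 3 values of 3 groups hold only 2 independent differences, many genes lie close and this is a description. Nearest to Lmnb1 were Tm7sf2, a sterol reductase gene, within 0.0044, Plk4 within 0.0092 and Plk1 within 0.011. Hmgb2 itself ranked 39 by this measure, within 0.060. Nearest to Hmgb2 were Fat1 (0.0040), Clspn (0.0076) and Rad54l (0.017), and Lmnb1 ranked 66. Nearest to Lmna were Hacd4 (0.0020), Reep1 (0.0027) and Cep83 (0.0051), and Lmnb1 ranked 10426 of 10649. None of these 9 nearest genes was called in any comparison by the authors' deposited table.

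In the GENCODE M21 annotation of GRCm38, Hmgb2 spans chr8:57511907-57515999 on the plus strand and no other gene overlaps it, and no gene overlaps Lmna (chr3:88480147-88509956) or Lmnb2 (chr10:80901203-80918245). This start of Hmgb2 lies downstream of the RefSeq start from which the motif positions above were counted. The outermost GENCODE starts of Hmgb1, Tmpo and Lmna also differ from the RefSeq starts used, so the windows depend on the annotation. Hmgb1 (chr5:149046702-149184489, minus strand) overlaps 7 other annotated genes, among them Uspl1 on the opposite strand, and 13 pseudogenes carry its name, so its reads may be split among copies and its value is uncertain in that respect. Banf1 (chr19:5364638-5367168) overlaps Eif1ad on the opposite strand, Lbr (chr1:181815335-181843046) overlaps Dnah14 and another gene, and Tmpo (chr10:91147571-91181315) and Emd (chrX:74254687-74261548) overlap 1 other gene each. Whether the counting used strand is not given in the sources used here. With 1 value a gene, the products of Lmna (4 coding transcripts, lamin A and lamin C among them) and of Tmpo (5 coding transcripts) were not separated.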

How the data were processed

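RNA-seq of ovarian tissue covered 9 samples, 3 in each of UT, CTX and CAU, grouped by their titles. Tools named in the submitters' processing notes, with no role or order, are RSEM 1.3.1, DESeq2 1.44.0, HISAT2 and Bowtie2, on the build GRCm38.p6. Not given in the sources used here are the annotation, filters, covariates and strand setting. The authors' deposited table holds, per the file headers, a p-value and q-value (adjusted p) from DESeq2 and a log2 fold change for 19517 genes in 3 comparisons, of which 215 to 272 are blank. The deposited q-value was within 7.74e-05 of a Benjamini-Hochberg adjustment over all genes with a p-value. The 3 log2 columns add up, with a constant of -0.01, within 0.01 of it in 18772 of 18773 genes.

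The implied SE is the absolute log2 fold change over the absolute z of its two-sided p-value, which assumes a Wald test with no shrinkage, and intervals are 95% normal ones. Recovery of a known SE and of known changes was tested on simulated data drawn with these SEs; the Wald assumption itself was not tested. Depth per library is unknown, so no interval or floor from counts is given. Genes were chosen, and the 10 pathway and 12 cell type lists written, with earlier results of these data known. Named are the 9 genes, called pathway-list genes (or, where none was called, the one with the smallest SE in CTX against UT) and the 3 genes most like Lmnb1, Hmgb2 and Lmna. Called marker genes named were chosen after their values were seen. All 9 gene identifiers matched their symbols in RefSeq, and promoters of 8 genes were taken from RefSeq (GRCm38.p6). Alternatives were other thresholds, centring, scaled z and a limit on SE. The work used Python 3.11.15 with scipy 1.17.1, pandas 2.3.3, numpy 2.4.6 and matplotlib 3.10.9.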

Additional observations from a re-analysis of the deposited data

How the results depend on the processing

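The call of Hmgb2 in CTX against UT held at an adjusted p threshold of 0.1, with values centred on the median of all genes (adjusted p = 0.0169), with z scaled to a robust spread of 1 (adjusted p = 0.0361) and with only genes of an implied SE of at most 1 (adjusted p = 0.0250). At a threshold of 0.01 the count of called genes among the 9 was 0, since its deposited adjusted p is 0.0300. Under the same alternatives Lmnb1 had an adjusted p from 0.103 to 0.157 by the authors' DESeq2 p-values and was not called. In CAU against CTX and CAU against UT none of the 9 was called under any of these 5 alternatives, with an unadjusted p under 0.05 for 1 gene in each by DESeq2; scaling z lowered the adjusted p of Hmgb2 to 0.330 and 0.148. Setting the median of all genes to 0 moved log2 fold changes by at most 0.03 and changed the sign of none of the 9, and neither did the sum or difference of the other comparisons. Over all genes, centring gave 290 calls in CTX against UT against 249 as deposited. Scaled z gave 237 against 85 calls in CAU against CTX and 255 against 10 in CAU against UT. Thresholds of 0.1 and 0.01 gave 415 and 117 calls in CTX against UT. No paired analysis was possible because the table holds comparisons between groups and no values per library, and leaving out replicates was not run for the same reason. Depth per library is unknown, so which low genes it limits is not described.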
